A study of Mus musculus with 8 samples.

Results

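The 8 genes described here encode C-type lectin receptors of myeloid cells: Clec4a2, Clec4a3, Clec4d, Clec4e, Clec4n, Clec5a, Clec7a and Clec12a. They were chosen by name from the family, and each was read from the probe set row that the platform annotation assigns to that single symbol. All 8 were found, each on 1 row, among 22180 genes measured by a row with 1 symbol. All 8 are protein-coding genes of mouse chromosome 6, and Clec4n, Clec4d and Clec4e are consecutive coding genes there in the RefSeq table of GRCm38.p6.

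C-type lectin receptors sit on the surface of monocytes, macrophages, neutrophils and dendritic cells and bind sugars, lipids or proteins of microbes and of dying cells. The activating members signal through an immunoreceptor tyrosine-based activation motif (ITAM), either in their own tail or in a partner chain such as the Fc receptor gamma chain or DAP12. Both routes recruit the kinase Syk and lead through CARD9 to NF-kB and inflammatory cytokines. Other members carry an inhibitory motif (ITIM) that recruits phosphatases and dampens the response.

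The arrays measured amplified RNA of CD45+ CD11b+ Ly6Chi cells, the surface profile of inflammatory monocytes and macrophages, sorted from subcutaneous tumours of female C57BL/6 mice. The irradiated group is 4 mice whose tumours received 20 Gy, and the sham group is 4 mice given a sham treatment. Both groups were harvested 1 day later. The mice of both groups were 8 weeks old and bore tumours of the pancreatic cancer line 152, grown for 14 days. That line came from KPC mice, in which Pdx1-Cre switches on KrasLSL-G12D/+ and Trp53LSL-R172H/+, and it is a single line. The comparison asks whether irradiation of the tumour changed the levels of these receptor transcripts in the sorted cells.

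Levels are on the log2 scale. Transcripts of the sort markers were high on every array: Ptprc (CD45) lay at 11.50 to 11.71 in irradiated mice and 11.60 to 11.71 in sham mice. Itgam (CD11b) lay at 10.99 to 11.28 in irradiated and 10.68 to 11.09 in sham mice, and Ly6c2 at 10.77 to 12.45 in irradiated and 11.03 to 11.98 in sham mice. Marker lists of other cell types varied between arrays, and sham mouse 3 was at an extreme of several. It had the highest neutrophil list mean of the 8 arrays (8.43, against 6.29 to 7.72 in irradiated and 7.29 to 7.54 in the other sham mice). Of the neutrophil markers, Camp (10.10), Ngp (10.08), Ltf, Lcn2, Elane, Mpo and Prtn3 were at their highest of the 8 arrays there. Csf3r (8.07) was at its lowest, and the other markers lay in between. Sham mouse 3 also had the highest T and NK cell list mean (7.92), though sham mouse 2 was close to it (7.77). The macrophage list mean of sham mouse 3, 9.21, was as low as that of irradiated mouse 4. Over all genes, limma called 0 of 22180 at an adjusted p under 0.05 (0.0%), and 1347 had an unadjusted p under 0.05 (6.07%, made up of 2.05% higher and 4.03% lower in irradiated mice).

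None of the 8 receptor genes differed between irradiated and sham mice beyond the spread among mice. Their differences, irradiated minus sham, ran from -0.24 for Clec12a to 0.03 for Clec4e, with 4 genes above and 4 below 0. The median was -0.04, beside -0.03 over all genes tested. In limma, 0 of the 8 passed at an adjusted p under 0.05, where 0.0% of all genes did, and 0 had an unadjusted p under 0.05, where 6.07% of all genes did (2.05% higher, 4.03% lower). The irradiated and sham groups overlapped for all 8, while 3.68% of all genes had groups that did not overlap. The 95% intervals of the 8 differences reached down to -0.58, a 0.668-fold level, and up to 0.43, a 1.35-fold level. The signal comes from bulk RNA of sorted cells, so fewer cells of a type and less RNA per cell cannot be told apart.

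**Figure D1:**
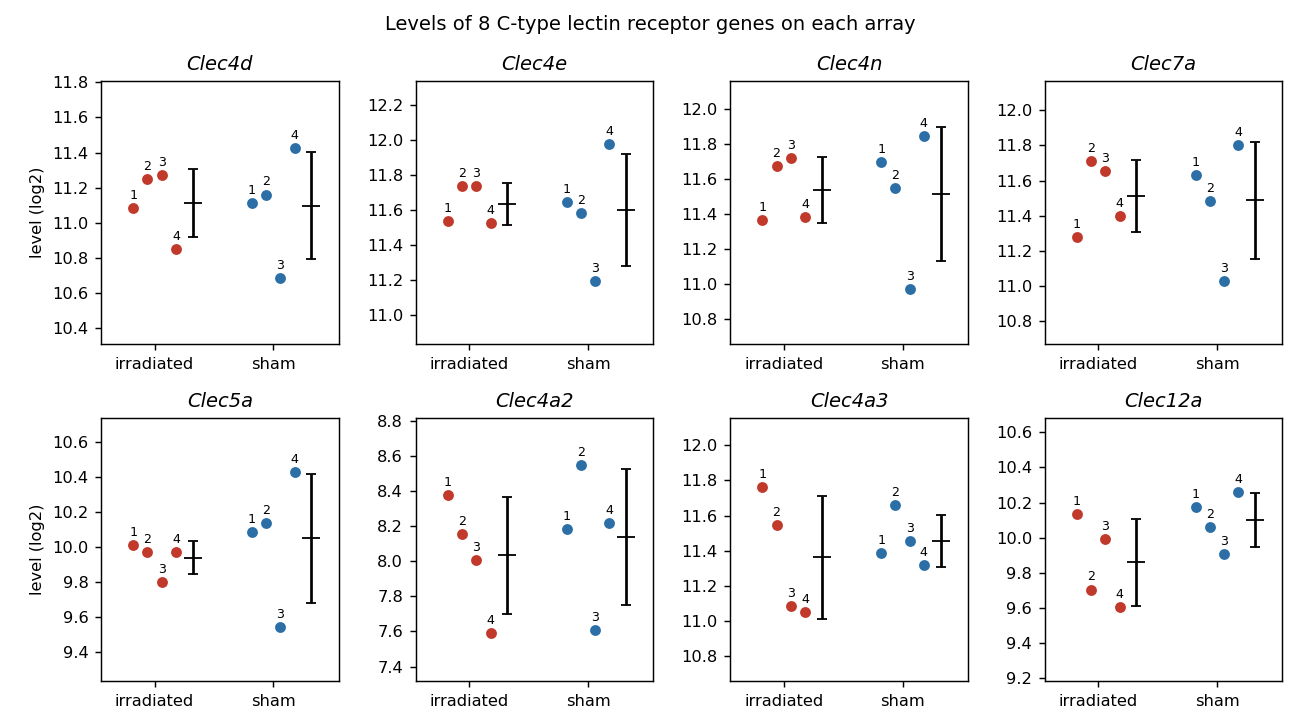
Level (log2, y axis) of each receptor gene in irradiated (red, left) and sham (blue, right) mice; points are single arrays with the mouse number, and bars are the mean and SD of the 4 mice. The y axes differ in position but all span the same width. The groups overlap in every panel, and sham mouse 3 is the lowest point for Clec4d, Clec4e, Clec4n, Clec7a and Clec5a.

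Clec4e encodes Mincle, which binds mycobacterial glycolipid and SAP130, a nuclear protein released by dying cells, and signals through the Fc receptor gamma chain. It stood at 11.54, 11.74, 11.74 and 11.52 in irradiated mice 1 to 4 and at 11.65, 11.58, 11.19 and 11.98 in sham mice 1 to 4. The irradiated mice sat inside the range of the sham mice, whose mouse 3 was the lowest and mouse 4 the highest of all 8 arrays. The means were 11.63 ± 0.12 in irradiated and 11.60 ± 0.32 in sham mice (SD, n = 4 each). The difference of 0.03 (95% interval -0.31 to 0.38) had an adjusted p of 0.979 in limma.

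Clec4d encodes MCL (Dectin-3), a partner that pairs with Mincle at the cell surface. It stood at 11.08, 11.25, 11.27 and 10.85 in irradiated mice 1 to 4 and at 11.11, 11.16, 10.69 and 11.43 in sham mice 1 to 4. Again the extremes were sham mice 3 and 4. The difference was 0.02 (95% interval -0.35 to 0.38, adjusted p = 0.993 in limma).

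Clec4n encodes Dectin-2, a receptor for fungal mannans that also uses the Fc receptor gamma chain. It stood at 11.37, 11.68, 11.72 and 11.38 in irradiated mice 1 to 4 and at 11.70, 11.55, 10.97 and 11.84 in sham mice 1 to 4. Irradiated mice 2 and 3 lay above irradiated mice 1 and 4, as they did for Clec4d and Clec4e. The difference was 0.02 (95% interval -0.39 to 0.43, adjusted p = 0.991 in limma).

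Clec7a encodes Dectin-1, the receptor for fungal beta-glucan, which carries an ITAM-like motif in its own tail. It stood at 11.28, 11.71, 11.65 and 11.40 in irradiated mice 1 to 4 and at 11.63, 11.48, 11.03 and 11.80 in sham mice 1 to 4. The order of the arrays was close to that of Clec4n, with irradiated mouse 1 and sham mouse 3 low. The difference was 0.02 (95% interval -0.36 to 0.40, adjusted p = 0.99 in limma).

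Clec5a encodes MDL-1, a receptor coupled to DAP12. It stood at 10.01, 9.97, 9.80 and 9.97 in irradiated mice 1 to 4 and at 10.09, 10.14, 9.55 and 10.43 in sham mice 1 to 4. The irradiated mice spanned 0.21 and the sham mice 0.88, again from mouse 3 to mouse 4. The means were 9.94 ± 0.095 in irradiated and 10.05 ± 0.37 in sham mice (SD, n = 4 each). They differed by -0.11 (95% interval -0.48 to 0.26, adjusted p = 0.937 in limma). Without sham mouse 3 the difference was -0.28, with an unadjusted p of 0.0475 and an adjusted p of 0.795 in limma, and without sham mouse 4 it was 0.02.

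Clec12a encodes MICL, an ITIM-bearing inhibitory receptor that senses uric acid crystals. It stood at 10.14, 9.70, 9.99 and 9.61 in irradiated mice 1 to 4 and at 10.17, 10.06, 9.91 and 10.26 in sham mice 1 to 4. Irradiated mice 2 and 4 lay below every sham mouse, and irradiated mice 1 and 3 lay within the sham range. The means were 9.86 ± 0.25 in irradiated and 10.10 ± 0.15 in sham mice (SD, n = 4 each). Its difference of -0.24 (95% interval -0.55 to 0.07) was the furthest from 0 of the 8 and ranked 3013 by p among 22180 genes (adjusted p = 0.8285 in limma). A two-sided exact permutation of the 8 arrays gave p = 0.171, where the smallest possible is 0.0286. It stayed below 0 under each of 21 alternatives, from -0.36 without sham mice 2 and 3 together to -0.16 without irradiated mouse 4. Its unadjusted p was 0.0372 without irradiated mouse 1, where the adjusted p in limma was 0.792.

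Clec4a2 encodes DCIR, an ITIM-bearing receptor of the Clec4a group. It stood at 8.38, 8.16, 8.01 and 7.59 in irradiated mice 1 to 4 and at 8.18, 8.55, 7.61 and 8.22 in sham mice 1 to 4. Irradiated mouse 4 and sham mouse 3 were low, and the other 6 arrays lay at 8.01 or above. The difference was -0.11 (95% interval -0.58 to 0.37, adjusted p = 0.952 in limma), the widest interval of the 8. Without sham mouse 3 it was -0.28, and without irradiated mouse 4 it was 0.04.

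Clec4a3 encodes DCIR3, a close relative of DCIR. It stood at 11.76, 11.54, 11.09 and 11.05 in irradiated mice 1 to 4 and at 11.39, 11.66, 11.45 and 11.32 in sham mice 1 to 4. Here the irradiated mice were the more spread, with mice 3 and 4 below and mouse 1 above every sham mouse. The difference was -0.09 (95% interval -0.47 to 0.28, adjusted p = 0.947 in limma), or -0.23 without irradiated mouse 1 and 0.01 without irradiated mouse 4. Clec4a2 and Clec4a3 have near relatives in the same gene cluster, and whether the array's probes separate them was not tested.

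**Figure D2:**
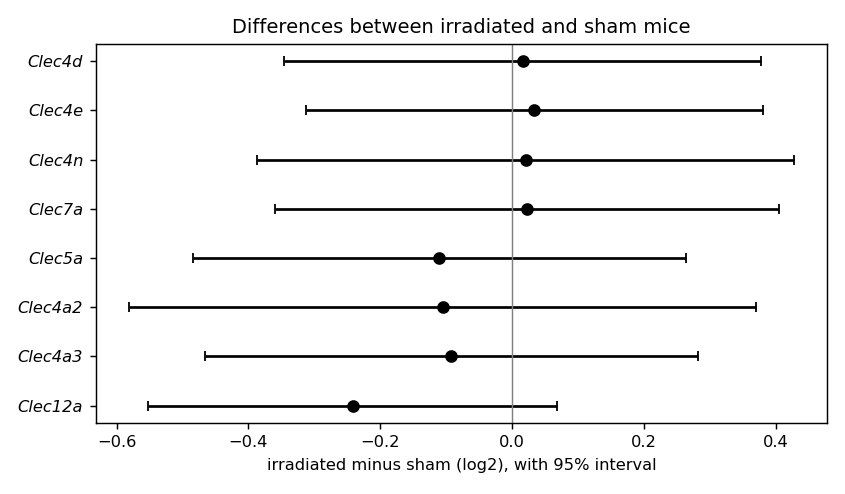
Difference between irradiated and sham mice (log2, x axis) for each receptor gene (y axis); points are the limma estimates and bars their 95% intervals. Every interval includes 0, and Clec12a at -0.24 lies furthest from it.

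The spread among mice was larger in the sham group for 6 of the 8 genes, as it was for 52.9% of all genes. Sham mouse 3 was the lowest of the 8 arrays for all 5 activating receptors (Clec4d, Clec4e, Clec4n, Clec5a and Clec7a), which was the case for 14.9% of all genes. Sham mouse 4 was the highest for all 5 and also for Clec12a, and the share of all genes highest there was not measured. Without sham mouse 3 the differences of Clec4d, Clec4e, Clec4n and Clec7a were -0.12, -0.10, -0.16 and -0.13, with adjusted p of 0.857 to 0.909 in limma. The sign also turned without irradiated mouse 2 (-0.045 to -0.0015) or irradiated mouse 3 (-0.041 to -0.00068). Without sham mouse 3, all 8 receptor genes were lower in irradiated mice, with a median of -0.15, beside -0.04 over all genes. Of all genes, 40.9% were then higher in irradiated mice. Leaving out the lowest array of the 5 activating receptors by itself lowers their differences. Without sham mouse 4, their highest array, Clec4d, Clec4e, Clec4n, Clec7a and Clec5a differed by 0.13, 0.16, 0.13, 0.13 and 0.015. Clec4a2, Clec4a3 and Clec12a then differed by -0.08, -0.14 and -0.19, and the lowest adjusted p of the 8 was 0.914 in limma.

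The levels of Clec4d, Clec4e, Clec4n and Clec7a moved together from mouse to mouse. All 28 pairs of the 8 genes were compared over the 8 arrays, after the levels had been seen, with two-sided exact permutation p adjusted over the 28. Exactly 6 pairs passed, and these were the 6 pairs among those 4 genes, with Pearson's r of 0.896 to 0.982 (adjusted p 0.00139 to 0.0117) and Spearman's rho of 0.905 to 0.976 (adjusted p 0.0111 to 0.0213). The strongest was Clec4n with Clec7a (r = 0.982, permutation p = 0.000174, rho = 0.929, permutation p = 0.00223). For Clec4d with Clec4e, neighbours on the chromosome, r was 0.945 (permutation p = 0.000198) and rho 0.952 (permutation p = 0.00114).

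The 2 arrays farthest from the median of the pair's first gene, in the order of the opening list, were then left out. The r of the 6 pairs was 0.662 to 0.959, lowest for Clec4d with Clec7a. The arrays left out were irradiated mouse 1 and sham mouse 3 for Clec4n with Clec7a (0.959), and sham mice 3 and 4 for the others. With the group means subtracted, r was 0.896 to 0.982. Each group holds 4 arrays, too few for a correlation within it. Without sham mouse 3, r of the 6 pairs was 0.782 to 0.968 and 2 of the 6 passed, with adjusted p of up to 0.133 by exact permutation. All points share the same arrays, so anything that differs between the sorted samples enters every pair. The share of pairs of other genes that would pass was not measured, so the joint course cannot be called particular to these receptors.

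Clec5a had r of 0.693 to 0.790 with those 4 genes (adjusted permutation p 0.128 to 0.154), rho of 0.476 to 0.524 (adjusted permutation p 0.454), and r of -0.489 to 0.404 without the 2 farthest arrays, so the relation did not hold without those arrays. The 18 pairs that involve Clec4a2, Clec4a3 or Clec12a had r of -0.265 to 0.680, and 0 of them passed by exact permutation.

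**Figure D3:**
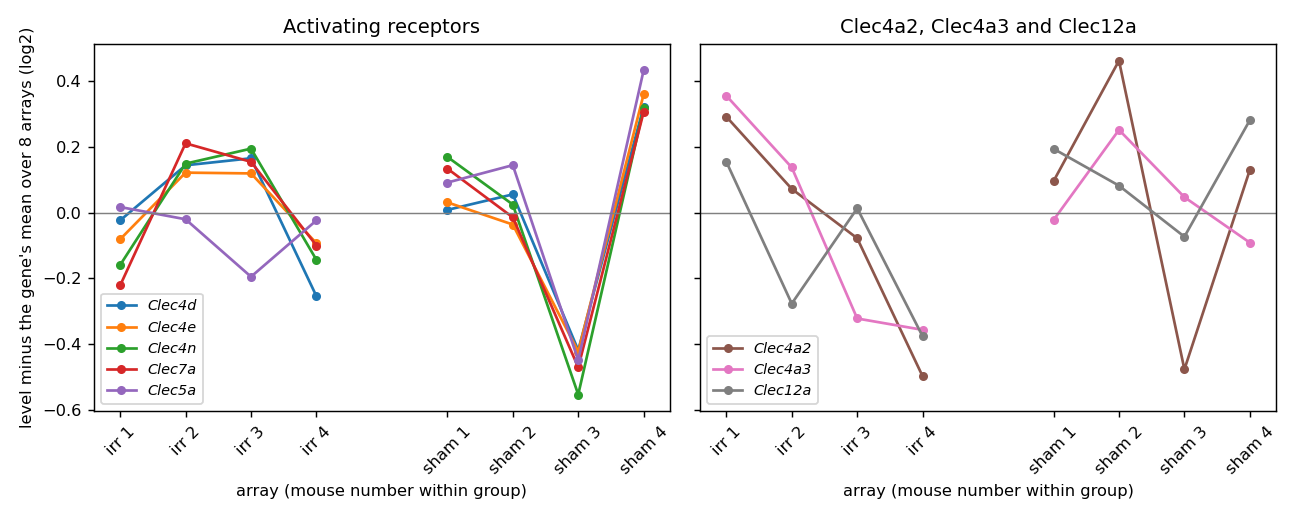
Level of each gene minus its mean over the 8 arrays (log2, y axis) across irradiated mice 1 to 4 and sham mice 1 to 4 (x axis), with lines joining the arrays of a group only to guide the eye. In the left panel Clec4d, Clec4e, Clec4n and Clec7a share one course, and Clec5a joins them in the sham mice. The right panel shows Clec4a2, Clec4a3 and Clec12a. Clec12a ranks the sham mice in the same order as Clec4e, Clec4n and Clec7a, over a narrower range of 0.35.

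**Figure D4:**
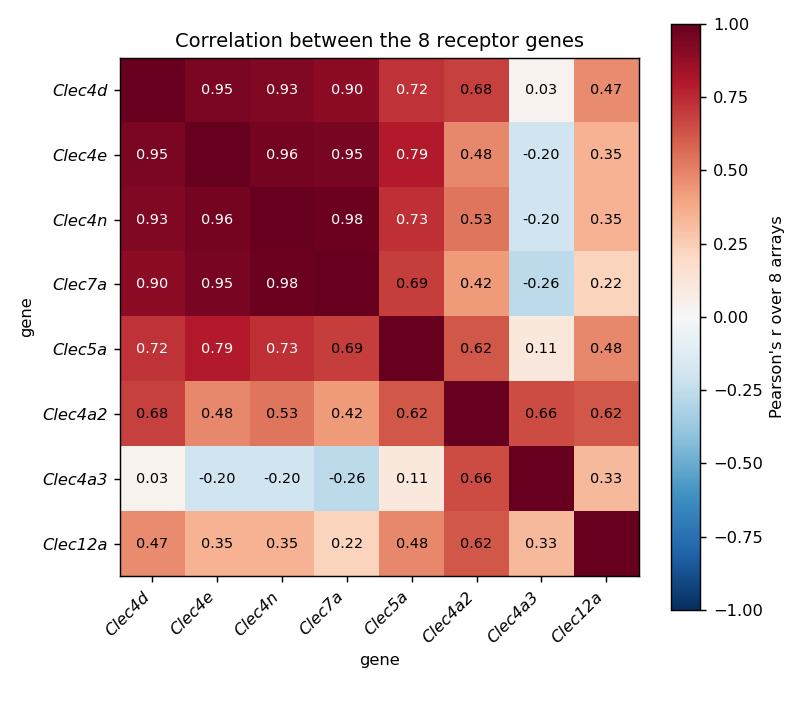
Pearson's r over the 8 arrays for each pair of the 8 genes (both axes), coloured from -1 to 1. The block of Clec4d, Clec4e, Clec4n and Clec7a lies between 0.896 and 0.982, and Clec4a3 lies between -0.265 and 0.106 with the activating receptors.

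The promoter windows of 3 genes of the joint block are printed with that of Clec12a, which had no passing pair, to show the sequence at their starts. They are RefSeq windows of GRCm38.p6, from 250 bases before to 50 bases after the gene's start, the furthest upstream where several are given. RefSeq windows were found for 7 of the 8 genes, and Clec4n is named only. Capitals mark matches, on either strand, to 4 motifs: GAGGAA (core of the PU.1 site), TTNNGNAA (C/EBP), GGG followed by any 5 bases and CC (NF-kB), and TGANTCA (AP-1).

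Clec4e, chr6:123289822-123290121, minus strand: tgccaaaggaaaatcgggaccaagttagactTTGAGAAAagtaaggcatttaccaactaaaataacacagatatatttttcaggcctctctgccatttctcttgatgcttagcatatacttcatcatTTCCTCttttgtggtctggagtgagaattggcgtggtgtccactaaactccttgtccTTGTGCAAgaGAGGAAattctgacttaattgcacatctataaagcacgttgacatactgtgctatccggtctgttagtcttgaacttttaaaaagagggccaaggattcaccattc
Clec4d, chr6:123261857-123262156, plus strand: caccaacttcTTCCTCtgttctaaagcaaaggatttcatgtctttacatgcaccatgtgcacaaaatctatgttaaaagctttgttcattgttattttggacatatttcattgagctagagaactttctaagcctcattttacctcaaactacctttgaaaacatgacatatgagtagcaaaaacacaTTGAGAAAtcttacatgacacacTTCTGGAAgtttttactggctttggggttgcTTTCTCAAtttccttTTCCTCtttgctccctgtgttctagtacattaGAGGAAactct
Clec7a, chr6:129472736-129473035, minus strand: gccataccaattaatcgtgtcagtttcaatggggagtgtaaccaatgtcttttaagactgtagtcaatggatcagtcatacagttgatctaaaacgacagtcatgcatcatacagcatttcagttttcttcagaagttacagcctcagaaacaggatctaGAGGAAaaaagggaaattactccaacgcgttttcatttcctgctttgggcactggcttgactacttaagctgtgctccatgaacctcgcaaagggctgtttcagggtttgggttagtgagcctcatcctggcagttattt
Clec12a, chr6:129349994-129350293, plus strand: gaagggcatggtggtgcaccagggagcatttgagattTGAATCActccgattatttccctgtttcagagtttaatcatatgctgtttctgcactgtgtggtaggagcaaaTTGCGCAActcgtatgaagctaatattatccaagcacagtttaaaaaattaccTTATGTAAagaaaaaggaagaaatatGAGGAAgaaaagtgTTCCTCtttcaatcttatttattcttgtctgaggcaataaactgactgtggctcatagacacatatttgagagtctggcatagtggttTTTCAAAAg

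The Clec4d window held 3 matches to GAGGAA and 3 to TTNNGNAA, that of Clec4e held 2 of each, and that of Clec7a held 1 match to GAGGAA and none to TTNNGNAA. The Clec12a window held 2 matches to GAGGAA, 3 to TTNNGNAA and 1 to TGANTCA. None of these matches overlap. GAGGAA was present in 5 of the 7 windows found, against 28.3% of 32851 RefSeq windows of the same length, and TTNNGNAA in 5 of 7, against 40.7%. TGANTCA was in 2 of 7, against 7.81%, and the NF-kB motif in 0 of 7, against 50.8%. These are matches of letters in these windows, with no measurement of binding.

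The receptors' partners and relay were measured by fixed lists. Of 14 measured adaptors and proximal kinases, 6 were higher and 8 lower in irradiated mice, with 0 at an unadjusted p under 0.05 in limma and a median of -0.02. Fcer1g, the gamma chain used by Mincle and Dectin-2, stood at 12.23 ± 0.12 in irradiated and 12.21 ± 0.12 in sham mice (SD, n = 4 each). Tyrobp, which encodes DAP12, the partner of Clec5a, stood at 12.58 ± 0.07 in irradiated and 12.61 ± 0.02 in sham mice. Syk differed by 0.12 (adjusted p = 0.903 in limma), Prkcd, the kinase that acts on CARD9, by 0.19, and Pik3cg, a phosphoinositide 3-kinase subunit, by -0.19 (adjusted p = 0.857 for both).

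Of 16 measured genes of the CARD9 complex and its relay, 9 were higher and 7 lower, with a median of 0.02. At an unadjusted p under 0.05, where 6.07% of all genes lay, the list held 1 gene of 16, Nfatc1, a calcium-dependent transcription factor. It differed by -0.27 (unadjusted p = 0.0463, adjusted p = 0.819 in limma). Card9 stood at 7.04, 6.85, 6.73 and 7.45 in irradiated mice 1 to 4 and at 7.02, 7.23, 7.57 and 7.25 in sham mice 1 to 4, a difference of -0.25 (adjusted p = 0.857 in limma). The values of the 2 groups overlapped, and sham mouse 3, low for the activating receptors, was the highest for Card9. Ikbkg, the regulatory subunit of the IkB kinase, differed by 0.18.

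Among the 12 ITIM phosphatases and negative regulators, 8 were higher and 4 lower, with a median of 0.03. Dok2, an adaptor that restrains Ras signalling, lay between 6.02 and 6.21 in the irradiated mice and between 5.74 and 5.98 in the sham mice, so the groups did not overlap, as was the case for 3.68% of all genes. It was the 1 gene of the 12 at an unadjusted p under 0.05 (6.07% of all genes), with a difference of 0.27, an unadjusted p of 0.0238 and an adjusted p of 0.819 in limma. Cblb, a ubiquitin ligase, differed by -0.30, and Ptpn6, which encodes the phosphatase SHP-1, by 0.06 (adjusted p of 0.822 and 0.948 in limma).

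Endogenous ligand genes were 4 higher and 4 lower, with a median of -0.01 and 0 at an unadjusted p under 0.05 in limma. Sf3b3, which encodes the Mincle ligand SAP130, stood at 8.75 ± 0.17 in irradiated and 8.83 ± 0.06 in sham mice (SD, n = 4 each). Lgals9, which encodes galectin-9, a ligand described for Dectin-1, stood at 11.14, 11.09, 10.83 and 10.87 in irradiated mice 1 to 4 and at 10.86, 10.78, 10.48 and 10.81 in sham mice 1 to 4. Irradiated mice 1, 2 and 4 lay above every sham mouse, irradiated mouse 3 lay within the sham range, and the difference of 0.25 had an adjusted p of 0.822 in limma. Anxa1 differed by -0.13. Of 6 regulators of Clec4e and Clec4d expression 4 were higher, among them Cebpb, which encodes a C/EBP factor, at 0.19 (adjusted p = 0.822 in limma), and Myd88 differed by -0.09.

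Transcripts that C-type lectin receptor signalling is known to induce, which other receptors induce as well, were higher in irradiated mice for 14 of 19, with 0 at an unadjusted p under 0.05 in limma and a median of 0.06. The proportion of all genes above 0 was 42.2%. Tnf differed by 0.44 (adjusted p = 0.899) and the inflammasome gene Nlrp3 by 0.38 (adjusted p = 0.871 in limma). The list means were 8.13, 8.79, 8.91 and 8.56 in irradiated mice 1 to 4 and 8.75, 8.25, 7.93 and 9.01 in sham mice 1 to 4. Sham mouse 3 was the lowest array for 14 of the 19 genes, as it was for 14.9% of all genes. Without it 7 of the 19 were higher in irradiated mice, with a median of -0.05. The list means were then 8.60 in irradiated and 8.67 in sham mice. Without that array the higher members were also fewer in the CARD9 relay list (4 of 16), among the negative regulators (4 of 12) and among the regulators of Clec4e and Clec4d (1 of 6), with medians of -0.06, -0.02 and -0.05. They were fewer among the other C-type lectin receptors too (4 of 27). The counts of the adaptors and proximal kinases (6 of 14) and of the ligand genes (4 of 8) stayed the same. Of all genes, 40.9% were higher then. Leaving out the lowest array of the induced transcripts by itself raises their sham mean, and that array was chosen after the levels were seen. The counts without sham mouse 4, which had their highest list mean (9.01), were not measured.

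Some of the activating receptors varied with these list means from mouse to mouse. The 8 genes were set against 5 list means over the 8 arrays, also after the levels had been seen. The lists were the macrophage, monocyte, neutrophil, and T and NK cell markers and the induced transcripts. By Pearson's r, 3 of the 40 relations passed after adjustment over the 40. They were those of Clec7a (r = 0.934, rho = 0.952, adjusted permutation p 0.0188 and 0.0228), Clec4e (r = 0.885, rho = 0.905, adjusted permutation p 0.0188 and 0.0608) and Clec4n (r = 0.893, rho = 0.952, adjusted permutation p 0.0301 and 0.0228) with the induced transcripts. Without the 2 arrays farthest from the receptor's own median, which differ between receptors, r was 0.819, 0.81 and 0.749.

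Against the macrophage marker list mean, r was 0.841 for Clec4d, 0.833 for Clec4n, 0.805 for Clec7a and 0.792 for Clec4e, with rho of 0.833, 0.857, 0.762 and 0.833 (adjusted permutation p of r 0.0631, 0.0631, 0.074 and 0.074, and of rho 0.0879, 0.0857, 0.134 and 0.0879). Without the 2 farthest arrays r was 0.808, 0.887, 0.815 and 0.869. Against the T and NK cell list mean, Clec7a had r = -0.805 and rho = -0.762 (adjusted permutation p 0.074 and 0.134), or r = -0.703 without the 2 farthest arrays. Clec4n had r = -0.782 and rho = -0.762 (adjusted permutation p 0.074 and 0.134), or r = -0.629. For Clec4e they were r = -0.733 and rho = -0.738 (adjusted permutation p 0.105 and 0.153), or r = -0.800, and for Clec4d r = -0.658 and rho = -0.667 (adjusted permutation p 0.245 and 0.256), or r = -0.449. Against the monocyte list mean, Clec4a3 had r = 0.704 and rho = 0.595 (adjusted permutation p 0.154 and 0.331), or r = 0.962 without the 2 farthest arrays. Clec4n had the opposite sign there, with r = -0.481 and rho = -0.762 (adjusted permutation p 0.546 and 0.134), or r = -0.546 without the 2 farthest arrays. With the neutrophil list mean, r was -0.131 for Clec4d, -0.246 for Clec4e, -0.169 for Clec4n and -0.126 for Clec7a (adjusted permutation p 0.822 to 0.854). Their rho was -0.048 to 0.119. The sign of r turned without the 2 farthest arrays, to 0.743, 0.757, 0.755 and 0.581.

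Markers of other cells lay beside these values as follows. All 16 neutrophil markers were measured, 14 of them lower in irradiated mice, and the list means ran from 6.29 to 7.72 in irradiated and from 7.29 to 8.43 in sham mice. Of 18 T and NK cell markers 15 were measured, 13 of them lower, with list means from 5.48 to 6.87 in irradiated and from 5.52 to 7.92 in sham mice. With the neutrophil list mean as a covariate the differences of Clec5a and Clec12a were -0.36 and -0.29 (unadjusted p 0.0602 and 0.144), those of Clec4a2 and Clec4a3 were -0.28 and -0.18 (unadjusted p 0.307 and 0.424), and with the T and NK cell list mean those of Clec5a and Clec12a were -0.18 and -0.29 (unadjusted p 0.323 and 0.0812), all at adjusted p of 0.733 or more in limma. Macrophage list means ran from 9.21 to 10.09 in irradiated and from 9.21 to 9.88 in sham mice, with 10 of 11 markers measured, and monocyte list means (8 of 9 measured) from 10.41 to 11.24 in irradiated and from 10.80 to 11.18 in sham mice. The B cell list (7 of 8 measured, 5 lower) had means of 5.01 to 5.87 in irradiated and 5.45 to 6.38 in sham mice, and the dendritic cell list (9 of 10 measured, 6 lower) 6.58 to 6.74 in irradiated and 6.70 to 7.11 in sham mice. The list of tumour epithelium, fibroblast and endothelium markers (12 of 12 measured, 7 lower) had means of 6.37 to 7.29 in irradiated and 6.10 to 7.53 in sham mice. At an unadjusted p under 0.05 in limma, 1 gene was lower in each of the neutrophil, T and NK cell, B cell and dendritic cell lists, where 4.03% of all genes were. The neutrophil covariate joins markers that were at their highest in sham mouse 3 with others that were not, among them Csf3r at its lowest. The part of these cells in the receptor levels was not tested beyond the covariate fits.

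Genes were then sought whose course over the 8 arrays lay nearest to each receptor, each gene being centred on its own mean, among 11275 genes with a mean at or above the median of all rows. Predicted genes (Gm and Rik names), small RNAs and the 8 receptor genes themselves were left out of these candidates. Likeness is given as the root mean square difference in log2. By this measure the distances among Clec4d, Clec4e, Clec4n and Clec7a ran from 0.05 (Clec4n with Clec7a) to 0.11 (Clec4d with Clec7a). Clec4d and Clec4e lay 0.073 apart, farther than the nearest candidate of each, Rbm7 (0.069) and Dpm2 (0.060). Among the candidates, the nearest to Clec4n were Il1rn (0.06), which encodes the interleukin-1 receptor antagonist and is one of the 19 induced transcripts, and C3ar1 (0.06), the receptor for complement C3a. C3ar1 was also the nearest candidate to Clec7a (0.07), followed by Azin1 (0.07). Clec4e lay nearest to Dpm2 and Spg21 (0.06 each), and Clec4d to Rbm7 and Slpi (0.07 each). Slpi encodes a secreted inhibitor of leukocyte proteases. For scale, the 4 receptors themselves lay 0.21 to 0.26 from their own means by the same measure.

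C3ar1 stood at 10.46, 10.87, 10.78 and 10.49 in irradiated mice 1 to 4 and at 10.72, 10.64, 9.97 and 10.87 in sham mice 1 to 4, the course of Clec4n with sham mouse 3 low. The nearest to Clec5a were Zdhhc21 and Shfl (0.06 and 0.08), to Clec12a Rheb and Umad1 (0.08 and 0.09), to Clec4a2 Nat2 and Emc9 (0.12 each), and to Clec4a3 Arhgef10l and Cox16 (0.09 and 0.10).

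Other C-type lectin receptors, 27 of 28 measured, were lower in irradiated mice for 20 and higher for 7, with a median of -0.08 and 0 at an unadjusted p under 0.05 in limma. The smallest p were those of Clec4g, a lectin of liver sinusoidal cells, at 5.00 ± 0.29 in irradiated and 5.39 ± 0.31 in sham mice (SD, n = 4 each), and of Cd69, an early activation marker, at 9.01 ± 0.30 in irradiated and 8.74 ± 0.23 in sham mice. Their differences of -0.38 and 0.27 had adjusted p of 0.822 and 0.842 in limma.

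**Figure D5:**
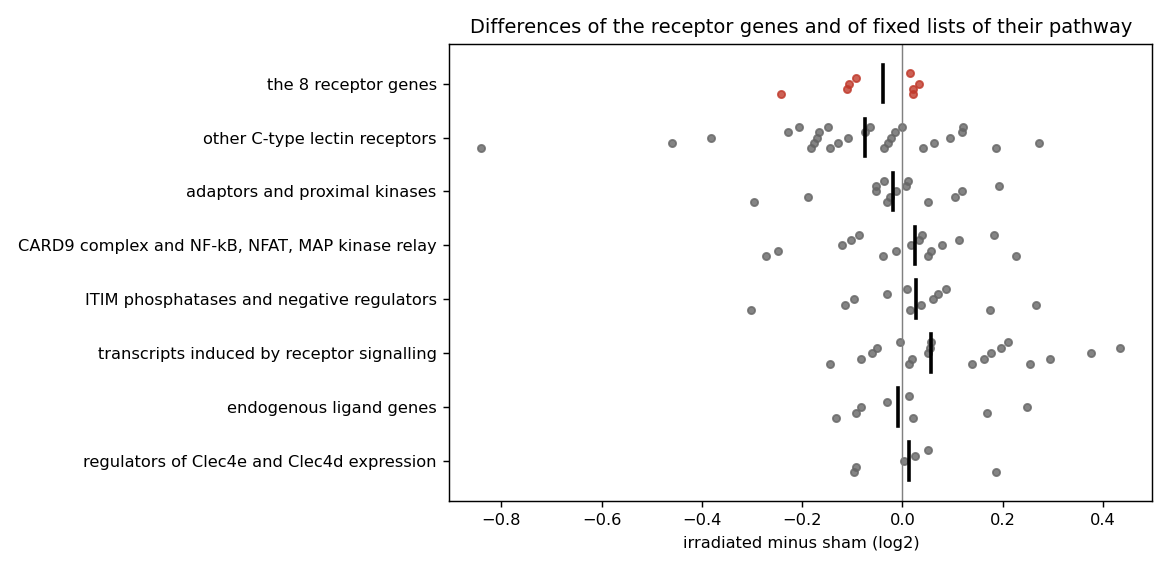
Difference between irradiated and sham mice (log2, x axis) of each gene (points) in the 8 receptors and in the fixed lists of their pathway (y axis); black bars are the medians, and the vertical offset of points within a row only separates them. The list medians lie between -0.08 for other C-type lectin receptors and 0.06 for induced transcripts.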

How the data were processed

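Transcript levels were measured on microarrays, 1 per mouse, from 25 ng of total RNA per sample amplified by ribo-SPIA, per the labels' protocols. The deposited values are log2 levels that the authors made with RMA and Partek, per the submitters' processing notes; versions, settings, batches and detection calls are not stated in the labels, and the log2 scale was read from the range of 1.89 to 13.15. The table holds 34365 rows, of which 23521 have 1 gene symbol in the platform annotation; for the 1082 symbols with several rows the row with the highest mean was kept.

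The 4 irradiated and 4 sham arrays, grouped by sample title, entered a two-sided fit by limma 3.58.1 under R 4.3.3 (lmFit, eBayes). Adjusted p are Benjamini-Hochberg values over all 22180 genes, with a threshold of 0.05; the number of arrays limits the precision. Tested on simulated data over the 22180 genes, the fit recovered 77% of genes given a log2 change of 1 and 95% of genes given 1.5, with 4 false calls. Named genes are the 8 receptors, the 2 genes of each pathway list with the smallest p, 7 pathway genes and 3 sort markers fixed by name, and the 2 nearest genes of each receptor. The genes, lists and tests were chosen with earlier results of these data known, and the correlations and the list counts without sham mouse 3 were added after the levels were seen.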

Additional observations from a re-analysis of the deposited data

Results flagged for a closer look

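The mean of the 14 adaptors and proximal kinases was 9.17 in sham mouse 2, against 9.06 to 9.07 in the other 3 sham mice, a gap of 0.884 of the group's range. It was the single outlying array found in 44 groups of 4 arrays checked, where about 1 in 20 is flagged by chance, and no receptor gene was among them.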

How the results depend on the processing

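Of 21 alternatives per gene, each of the 8 receptor genes kept an adjusted p of 0.733 or more in limma, and 0 passed under any. Clec12a kept its direction under all 21, and the other 7 changed sign in 38 cases in all. Leaving out 1 array in turn gave -0.28 to 0.043 for Clec4a2, -0.23 to 0.011 for Clec4a3, -0.12 to 0.13 for Clec4d, -0.10 to 0.16 for Clec4e, -0.16 to 0.13 for Clec4n, -0.28 to 0.015 for Clec5a and -0.13 to 0.13 for Clec7a; the cause was not tested. Without sham mice 2 and 3 together the values were 0.011 for Clec4a3, -0.16 for Clec4d, -0.18 for Clec4e, -0.23 for Clec4n and -0.21 for Clec7a. Adding the T and NK cell markers' mean to the fit gave -0.091 for Clec4d, -0.077 for Clec4e, -0.13 for Clec4n and -0.12 for Clec7a, and with the neutrophil list mean -0.029, -0.043, -0.049 and -0.021. For Clec4d, Clec4n and Clec7a they were -0.011, -0.011 and -0.0062 with the macrophage list mean, -0.000735, -0.0049 and -0.0026 with the monocyte list mean (added after seeing the data), and -0.0025, -0.011 and -0.0020 with array weights. The count over all genes was 1 in place of 0 with the neutrophil list mean as a covariate and 0 to 1 with each array left out, reaching 1 without irradiated mouse 1. Mouse numbers did not pair the groups: the correlations of same-numbered deviations were -0.28, -0.17, -0.18 and -0.14. The replicate block left 0 genes past the threshold and the Clec12a difference at -0.24. Of the 6 joint pairs, 4 missed the threshold without sham mouse 3 and 1 without sham mouse 4, Clec4d with Clec7a; r lay between 0.782 and 0.989 with 1 array left out, array medians subtracted or group means subtracted, and between 0.662 and 0.959 without the 2 farthest arrays. Signal over background was not measured.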
